A study of Mus musculus with 12 samples.

Results

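Transcripts of solute carriers, a large family of membrane transport proteins, were compared between murine Braf V600E melanoma cells and derivatives of these cells that lack an enzyme of prostaglandin synthesis. The genes were chosen by their names and levels. Of 358 gene names that begin with Slc and a digit, 160 reached 1 RPKM on average over the 12 samples, and *Slc2a1*, *Slc16a3*, and *Slc7a11* were set aside, which gave 157 genes of 30705 in the deposited values. RPKM are reads per kilobase of transcript and a fixed number of reads, so that levels can be compared between genes. Of the names not chosen, 198 had a mean under 1 RPKM, and 59 of these were listed at 0 in all samples. Just inside the limit were *Slc39a8* (mean 1.14 RPKM), *Slc24a5* (1.16 RPKM), and *Slc27a3* (1.24 RPKM), and just outside were *Slc7a3* (0.968 RPKM), *Slc46a3* (0.942 RPKM), and *Slc2a6* (0.852 RPKM). None of the 157 genes was at 0 in any sample. For *Slc24a5* and *Slc39a8* the mean without their highest line was under 1 RPKM, so these 2 genes passed only through that line and had to differ between lines.

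RNA was sequenced from 12 samples, 3 of each of 4 cell lines. These were scramble control cells and cells in which CRISPR/CAS9 was aimed at *ptgs1*, the gene of COX-1 (*ptgs1*-KO), *ptgs2*, the gene of COX-2 (*ptgs2*-KO), or *ptges*, the gene of mPGES-1 (*ptges*-KO). All 4 lines descend from melanoma cells of a C57BL/6 mouse with the genotype p16INK4a-/-, Tyr::CreERT2+/o, and Braf+/LSL-V600E, so that scramble and knockout cells share a Braf allele switched on by a Cre under the tyrosinase promoter and share the loss of p16INK4a. The labels give no drug treatment for any line, and cells were kept in D-MEM with fetal bovine serum. Stable cells were selected with puromycin and subcloned. A figure legend of the study names different subclones of each line for RNA-seq, where its results text names independent samples. The p values therefore measure the spread between 3 such samples. All comparisons with scramble cells share the same 3 scramble samples.

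Solute carriers move ions, nutrients, metals, nucleotides, and metabolites across the plasma membrane and the membranes of organelles. They do so down a gradient or by coupling the substrate to sodium, protons, or an exchanged solute, and not by splitting ATP themselves. In cells of the melanocyte lineage, *Slc45a2* and *Slc24a5* belong to the pigment organelle, and in many tumor cells *Slc3a2* with *Slc7a5* brings in large neutral amino acids.

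The summed RPKM were 878504 to 903881 per sample, with an estimated depth of 13.4 to 17.1 M reads. In their own knockout lines the targeted transcripts differed from scramble cells by log2 fold changes of -3.16 (*Ptgs1*), -3.24 (*Ptgs2*), and -1.05 (*Ptges*), and *Ptgs2* and *Ptges* also fell in *ptgs1*-KO cells. Among melanocyte markers *Sox10*, *Tyrp1*, *Dct*, *Mlana*, and *Kit* were listed at 0 in all samples, while *Mitf* had a mean of 2.3 RPKM, *Tyr* of 0.699 RPKM, and *Pmel* of 0.52 RPKM, so most defining markers of the labelled lineage were absent. Marker lists of fibroblasts, immune cells, endothelial cells, and keratinocytes each summed to at most 12.5 RPKM in any sample, with *Dcn*, *Lum*, *Cd3e*, *Kdr*, *Krt5*, *Krt14*, and *Krt1* listed at 0. The 6 fibroblast markers summed to 8.34 to 8.89 RPKM in scramble, 10.9 to 12.5 RPKM in *ptgs1*-KO, 3.81 to 4.98 RPKM in *ptgs2*-KO, and 5.03 to 6.01 RPKM in *ptges*-KO samples. Most of this sum came from *Pdgfra*, with means of 8.08, 10.43, 3.77, and 5.36 RPKM in the same order. The line means of *Col1a1*, *Col1a2*, and *Thy1* were at most 0.98, 0.25, and 0.02 RPKM. The part of the fibroblast markers in the results was not tested. In bulk RNA, fewer cells of a type and less RNA per cell cannot be told apart. The *ptgs1*-KO replicate 3 stood apart, with 29.7% of its summed values in the 20 highest genes (21.4% to 25.8% in the others) and 8.24% in a single gene. In that line 131 of the 157 genes had their lowest value in replicate 3 (83.4%, with 67.5% of all genes tested), and in *ptges*-KO cells 109 had their highest value in replicate 1 (69.4%, with 55.2% of all genes tested).

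In *ptges*-KO cells, more solute carrier transcripts fell than rose. Each gene was compared on log2(RPKM + 1) in a limma model of all 12 samples, and a gene was called where its adjusted p (Benjamini-Hochberg, over the 11282 genes that reached a mean of 1 RPKM) was under 0.05. Compared with scramble cells, 60 of the 157 genes changed in *ptges*-KO cells, 8 higher and 52 lower, where 26.3% of all genes tested changed, 11.9% higher and 14.4% lower. Over all genes tested this balance turned with the scaling, with 1342 genes higher and 1627 lower as reported, 2054 and 1715 after scaling by the median ratio, 1870 and 1606 after quantile normalization, and 2149 and 1826 once trends with length and GC content were taken out, a setting chosen after seeing the data. The solute carrier genes were split into 11 higher and 55 lower, 10 and 54, and 10 and 63 under the same settings. The 52 genes are 33.1% of the 157 and include *Slc24a5*, which passed the 1 RPKM limit only through its highest line, scramble. The median log2 fold change was -0.24 over the 157 genes and -0.03 over all genes tested, with 125 of the 157 genes under 0 (79.6%, with 54.2% of all genes tested). Samples of *ptges*-KO cells lay below all scramble samples in 80 genes (51%, with 23% of all genes tested) and above them in 15 (9.55%, with 20.3%). These shifts were small for most genes, with a median absolute log2 fold change of 0.44 among the 60, and only 3 of these reached an absolute log2 fold change of 1 (1.91%, with 1.94% of all genes tested). The number called was 36 without scramble replicate 2, 37 without *ptges*-KO replicate 2, 38 without *ptges*-KO replicate 3, and 66 without *ptges*-KO replicate 1, the library that was highest in most genes. A Tukey test on untransformed RPKM called 20. Its p values, which already allow for all pairs of lines, were here and below also adjusted (Benjamini-Hochberg) over the genes tested.

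**Figure D1:**
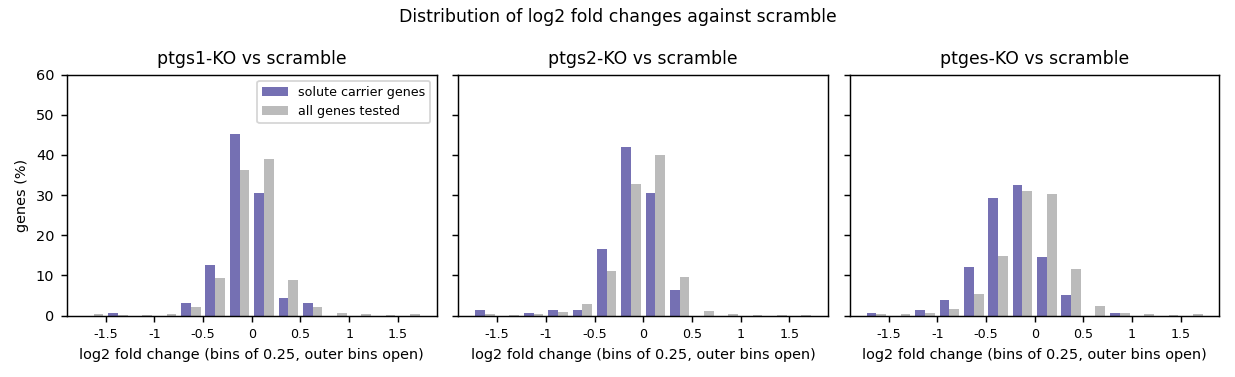
Distribution of log2 fold changes of RPKM + 1 against scramble cells in each knockout line, in bins of 0.25, with the percentage of genes on the vertical axis for the 157 solute carrier genes (purple) and for all genes tested (gray). In *ptges*-KO cells the purple bars lie to the left of the gray bars, with 29.3% of the solute carrier genes and 14.7% of all genes tested between -0.5 and -0.25.

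In *ptgs1*-KO cells 18 of the 157 genes changed, 7 higher and 11 lower, where 9.26% of all genes tested changed, 4.65% higher and 4.61% lower. In *ptgs2*-KO cells 17 changed, 3 higher and 14 lower, where 11.1% of all genes tested changed, 5.97% higher and 5.17% lower. In all, 97 of the 157 genes in *ptgs1*-KO and 99 in *ptgs2*-KO cells had a log2 fold change under 0, where 48.6% and 48.3% of all genes tested did. An absolute log2 fold change of 1 was reached by 1 called gene in *ptgs1*-KO cells (1.24% of all genes tested) and by 3 in *ptgs2*-KO cells (0.984% of all genes tested). The share of the 157 genes called in either direction was thus near the background in both lines, at 11.5% and 10.8%. Samples of *ptgs1*-KO cells lay below all scramble samples in 34 genes (21.7%, with 13.2% of all genes tested) and above them in 17 (10.8%, with 13.7%). For *ptgs2*-KO cells these numbers were 52 (33.1%, with 15.8%) and 15 (9.55%, with 19.4%). The medians over the 157 genes were -0.06 and -0.08, with 0.01 over all genes tested in either line. Without scramble replicate 1 or 2 the number called in *ptgs1*-KO cells was 9, and without *ptgs1*-KO replicate 3 it was 14, 7 higher and 7 lower. Without *ptgs1*-KO replicate 1 it was 15, 1 higher and 14 lower, and by the Tukey test 3 were higher and 2 lower. In *ptgs2*-KO cells it was 8 without scramble replicate 1, scramble replicate 3, or *ptgs2*-KO replicate 3, and 9 without *ptgs2*-KO replicate 1, and it was 29 after scaling by the median ratio.

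Direct comparisons between knockouts were made in the same model. Between *ptges*-KO and *ptgs2*-KO cells 30 of the 157 genes differed, 3 higher and 27 lower in *ptges*-KO cells, where 16.6% of all genes tested differed, 6.76% higher and 9.84% lower. After scaling by the median ratio 40 differed, 9 higher and 31 lower. Leaving out *ptgs2*-KO replicate 2 gave 19, and leaving out *ptges*-KO replicate 1, 2, or 3 gave 45, 16, or 17. Between *ptges*-KO and *ptgs1*-KO cells 70 differed, 15 higher and 55 lower, where 30.2% of all genes tested differed, 13.2% higher and 17% lower (2209 genes higher and 1907 lower after scaling by the median ratio), and without *ptges*-KO replicate 3 the number was 44. Between *ptgs2*-KO and *ptgs1*-KO cells 37 differed (23.6%), 17 higher and 20 lower, where 23.6% of all genes tested differed, 12.1% higher and 11.6% lower. The split was 15 higher and 14 lower without *ptgs1*-KO replicate 2 and 11 higher and 28 lower without *ptgs1*-KO replicate 3. The log2 difference was under 0 in 113 genes for *ptges*-KO against *ptgs2*-KO cells (55.9% of all genes tested) and in 116 for *ptges*-KO against *ptgs1*-KO cells (55.3%). Called differences of at least 1 on the log2 scale numbered 1 for *ptges*-KO against *ptgs2*-KO cells (1.73% of all genes tested), 4 for *ptges*-KO against *ptgs1*-KO cells (3.2%), and 3 for *ptgs2*-KO against *ptgs1*-KO cells (2.46%). Across the 4 lines 78 genes differed by the moderated F test (49.7%, with 38.6% of all genes tested), and 90 genes had their lowest mean in *ptges*-KO cells (57.3%, with 35.1% of all genes tested).

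**Figure D2:**
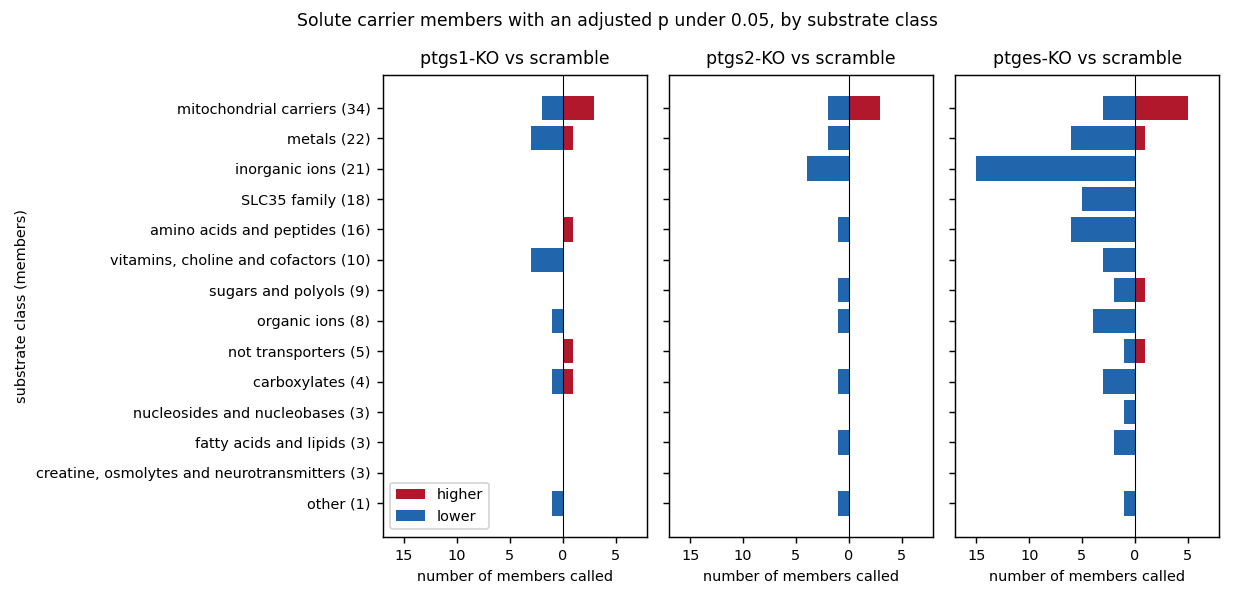
Number of solute carrier genes called higher (red, to the right of 0) or lower (blue, to the left of 0) than in scramble cells in each knockout line, by substrate class with the number of genes in parentheses. The longest bar stands for 15 inorganic ion carriers that were lower in *ptges*-KO cells.

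Carriers of inorganic ions showed the highest share of lower genes among the classes with more than 10 members. Of 21 genes, 15 fell in *ptges*-KO cells (71.4%, with 14.4% of all genes tested) and none rose. In *ptgs2*-KO cells 4 fell (19%, with 5.17% of all genes tested), and none was called in *ptgs1*-KO cells. Among the 15 is *Slc24a5*, which passed the 1 RPKM limit only through its highest line, scramble. Over the 21 genes the median log2 fold changes were -0.08 in *ptgs1*-KO, -0.22 in *ptgs2*-KO, and -0.44 in *ptges*-KO cells. In *ptges*-KO cells 20 of the 21 genes had a log2 fold change under 0. The summed level of the class was 940.6 to 989.9 RPKM in scramble samples and 672.1 to 808.4 RPKM in *ptges*-KO samples, and these ranges did not overlap. The sum was 828.8 to 974.8 RPKM in *ptgs1*-KO and 750.2 to 892.5 RPKM in *ptgs2*-KO samples. In direct comparison, *ptges*-KO cells had lower levels of 5 of the 21 genes than *ptgs2*-KO cells (23.8%, with 9.84% of all genes tested). Against *ptgs1*-KO cells 11 of the 21 were lower (52.4%, with 17% of all genes tested). The number that fell against scramble cells was 12 to 17 with a sample of either line left out (17 without *ptges*-KO replicate 1) and 4 by the Tukey test. The 4 genes called in *ptgs2*-KO cells were reduced to 1 without scramble replicate 1, scramble replicate 3, *ptgs2*-KO replicate 1, or *ptgs2*-KO replicate 3, and to 0 by the Tukey test.

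The ion carrier with the lowest F test p over the 4 lines was *Slc12a9*, a relative of the cation-chloride cotransporters. Its levels were 17.1, 18.8, and 19.4 RPKM in scramble, 21.1, 17.8, and 15.9 RPKM in *ptgs1*-KO, 15.1, 17.1, and 14.2 RPKM in *ptgs2*-KO, and 11.4, 8.65, and 10.5 RPKM in *ptges*-KO samples. The *ptges*-KO samples lay below all other samples, with a mean of 55.2% of the scramble mean and a log2 fold change of -0.81 (SE 0.12, adjusted p = 0.00046). The potassium-chloride cotransporters *Slc12a4* and *Slc12a7*, which export both ions, fell in *ptges*-KO cells (-0.53 and -0.44 on the log2 scale), as did the sodium-potassium-chloride importer *Slc12a2* (-0.34).

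Carriers that set intracellular pH were among the lower genes. The sodium/proton exchanger *Slc9a8*, which resides in the Golgi, had 25.2, 21.1, and 22.8 RPKM in scramble and 15.6, 14.5, and 12.2 RPKM in *ptges*-KO samples, with a log2 fold change of -0.67 (SE 0.11, adjusted p = 0.000928). It had 21.99, 23.8, and 22.3 RPKM in *ptgs2*-KO samples, and the difference between *ptges*-KO and *ptgs2*-KO cells was -0.65 (SE 0.11, adjusted p = 0.00143). The *ptges*-KO samples were thus below every sample of the other lines. *Slc9a5* (-0.64) and *Slc9a2* (-0.42), exchangers of the same family, fell in *ptges*-KO cells too, and *Slc9a5* also fell in *ptgs2*-KO cells (-0.55), a call lost without scramble replicate 1 or 3 or *ptgs2*-KO replicate 1 or 3. The chloride/bicarbonate exchanger *Slc4a2* had 112, 114, and 116 RPKM in scramble and 87.0, 76.8, and 76.6 RPKM in *ptges*-KO samples, with a log2 fold change of -0.51 (SE 0.10, adjusted p = 0.00205). *Slc4a11* fell in both *ptgs2*-KO (-0.38) and *ptges*-KO cells (-0.64). The sodium-bicarbonate cotransporter *Slc4a7* spread widely, with 21.5, 9.47, and 13.6 RPKM in *ptges*-KO and 20.8, 19.9, and 9.21 RPKM in *ptgs1*-KO samples, and did not pass the threshold in any line.

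Several carriers of phosphate, calcium, and sulfate were called lower in *ptges*-KO cells. The sodium-phosphate importer *Slc20a2* fell in *ptgs2*-KO (-0.41) and *ptges*-KO cells (-0.37). Its relative *Slc20a1* fell in *ptges*-KO cells (-0.41) and was at 0.13 (adjusted p = 0.424) in *ptgs2*-KO cells, with a difference of *ptges*-KO from *ptgs2*-KO cells of -0.54 (SE 0.10, adjusted p = 0.00233). *Slc24a6*, the older symbol of the mitochondrial sodium/calcium/lithium exchanger, had 8.73, 7.20, and 12.3 RPKM in scramble, 4.22, 6.49, and 4.12 RPKM in *ptgs2*-KO, and 5.48, 4.89, and 3.58 RPKM in *ptges*-KO samples, with log2 fold changes of -0.80 (SE 0.20, adjusted p = 0.021) and -0.87 (SE 0.20, adjusted p = 0.00681). The scramble samples spread from 7.20 to 12.3 RPKM, and the call in *ptgs2*-KO cells was lost without scramble replicate 1 or 3 or *ptgs2*-KO replicate 1 or 3. *Slc24a5*, the calcium exchanger of the melanosome, was low throughout, with 1.26, 2.01, and 1.77 RPKM in scramble and 0.38, 0.54, and 0.45 RPKM in *ptges*-KO samples. It entered the set only through its highest line, scramble. *Slc26a6* and *Slc26a2*, exchangers of chloride, oxalate, and sulfate, fell in *ptges*-KO cells (-0.58 and -0.36, adjusted p = 0.0175 and 0.0461). *Slc26a11* of the same family had a log2 fold change of -0.20 there (adjusted p = 0.376).

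**Figure D3:**
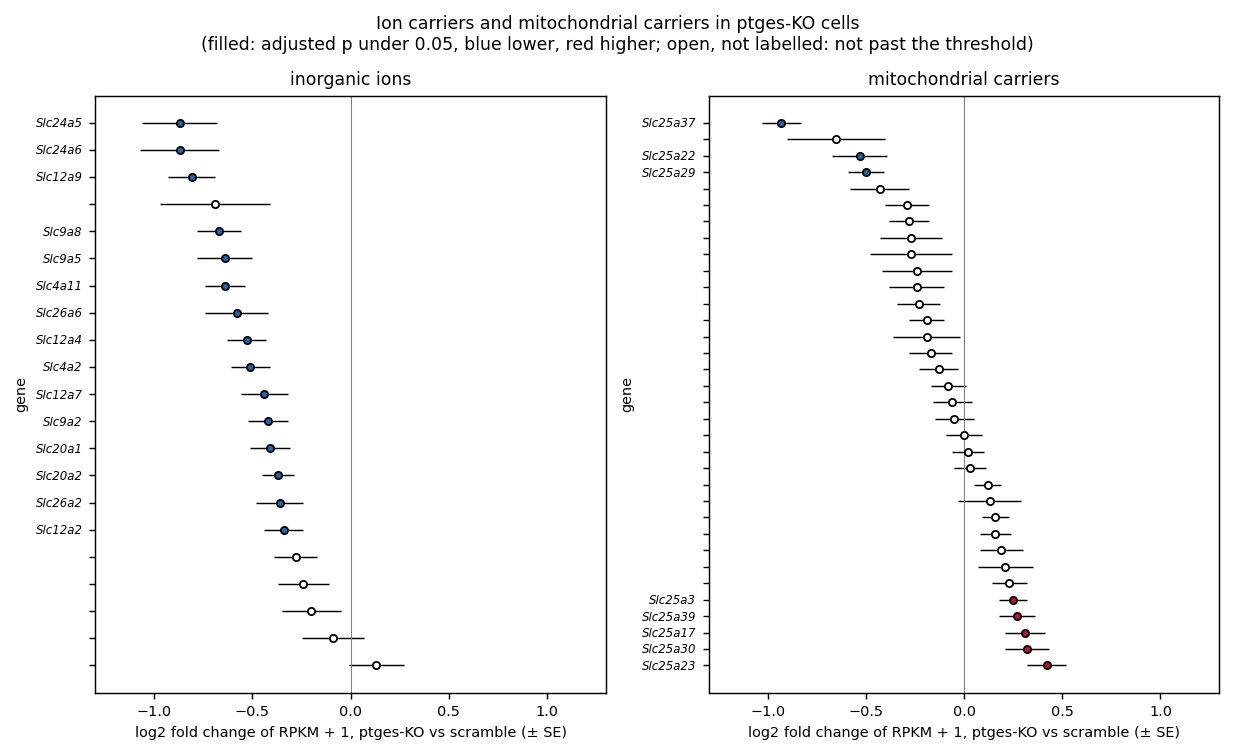
Log2 fold changes of RPKM + 1 in *ptges*-KO against scramble cells with standard errors, for the 21 inorganic ion carriers (left) and the 34 mitochondrial carriers (right), each point a gene, filled and labelled with its name where the adjusted p was under 0.05. The named ion carriers lie to the left of 0, whereas mitochondrial carriers spread to both sides, from -0.93 to 0.42.

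Mitochondrial carriers, here all genes named *Slc25*, moved in both directions. Most of them exchange nucleotides, phosphate, amino acids, and metabolites across the inner mitochondrial membrane. The class also holds the peroxisomal carrier *Slc25a17*, which is among the genes that rose in *ptges*-KO cells. The mitochondrial exchanger *Slc24a6* was counted with the ion carriers. Of 34 genes, 5 rose and 3 fell (8.82%) in *ptges*-KO cells, where 11.9% of all genes tested rose and 14.4% fell. In *ptgs1*-KO as in *ptgs2*-KO cells 3 rose and 2 fell (5.88%). Over all genes tested 4.65% rose and 4.61% fell in *ptgs1*-KO, and 5.97% and 5.17% in *ptgs2*-KO cells. The medians of the class were -0.07, -0.03, and 0.03 in *ptges*-KO, *ptgs1*-KO, and *ptgs2*-KO cells. The balance in *ptges*-KO cells did not hold when a sample was left out, with 2 higher and 4 lower, 1 and 4, and 1 and 3 without scramble replicate 1, 2, and 3, and 1 and 4, 2 and 3, and 3 and 2 without *ptges*-KO replicate 1, 2, and 3. It was 3 higher and 5 lower with untrended eBayes. The summed level was 2138 to 2190 RPKM in scramble, 1954 to 2195 RPKM in *ptgs1*-KO, 2229 to 2358 RPKM in *ptgs2*-KO, and 2297 to 2425 RPKM in *ptges*-KO samples. All *ptgs2*-KO and *ptges*-KO samples thus lay above all scramble samples in this sum. Much of it came from 3 genes. The adenine nucleotide carrier *Slc25a5* was at 479.7 ± 12.5 RPKM (SD, n = 3) in scramble cells against 534 ± 11.6 RPKM (n = 3) where *ptges* was knocked out (adjusted p = 0.157), and *Slc25a4*, another adenine nucleotide carrier, at 335 ± 5.87 and 374 ± 7.64 RPKM (SD, n = 3 each, adjusted p = 0.125). The phosphate carrier *Slc25a3* rose from 433 ± 7.72 to 517 ± 16.1 RPKM (SD, n = 3 each) with a log2 fold change of 0.25 (SE 0.07, adjusted p = 0.0217), a call that was lost without any 1 of the scramble samples or without *ptges*-KO replicate 1 or 2.

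Both carriers of iron into mitochondria had lower calls in at least 1 line. Mitoferrin-1, coded by *Slc25a37*, had 59.1, 48.4, and 61.5 RPKM in scramble, 48.5, 58.6, and 48.3 RPKM in *ptgs1*-KO, 37.0, 40.5, and 36.5 RPKM in *ptgs2*-KO, and 28.6, 28.8, and 29.3 RPKM in *ptges*-KO samples. The lines were ordered without overlap from scramble over *ptgs2*-KO to *ptges*-KO cells, with log2 fold changes against scramble of -0.55 (SE 0.10, adjusted p = 0.00383) and -0.93 (SE 0.10, adjusted p = 2.77e-05) and a difference between both knockouts of -0.38 (SE 0.10, adjusted p = 0.019). Mitoferrin-2, coded by *Slc25a28*, fell in *ptgs2*-KO cells (-0.42) and was at 16.4 ± 1.1 RPKM (SD, n = 3) in *ptges*-KO against 19.5 ± 3.03 RPKM (SD, n = 3) in scramble cells (adjusted p = 0.124). *Slc25a39*, a carrier of glutathione into mitochondria, rose in *ptges*-KO cells from 193 ± 3.11 to 234 ± 20.8 RPKM (SD, n = 3 each, adjusted p = 0.0405).

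The ATP-magnesium/phosphate carrier *Slc25a23* was higher in all 3 knockouts. Its levels were 6.08, 6.01, and 5.53 RPKM in scramble, 11.6, 10.2, and 9.80 RPKM in *ptgs1*-KO, 8.60, 7.72, and 7.65 RPKM in *ptgs2*-KO, and 9.24, 7.59, and 7.75 RPKM in *ptges*-KO samples, and every knockout sample lay above every scramble sample. The log2 fold changes were 0.74 (SE 0.10, adjusted p = 0.000434), 0.39 (SE 0.10, adjusted p = 0.0289), and 0.42 (SE 0.10, adjusted p = 0.00997). The call in *ptgs2*-KO cells was lost when any 1 sample of either line was left out. Its paralog *Slc25a24* moved otherwise, falling in *ptgs1*-KO cells (-0.31, adjusted p = 0.0463) and rising in *ptgs2*-KO cells (0.40, adjusted p = 0.0114), with a difference of 0.71 between these lines (SE 0.09, adjusted p = 7.6e-05), while the related *Slc25a25* rose in *ptgs1*-KO cells (0.51, adjusted p = 0.0423). The *ptgs1*-KO calls of these paralogs were lost without any 1 scramble sample, that of *Slc25a24* also without *ptgs1*-KO replicate 2 or 3 and that of *Slc25a25* without replicate 1 or 2, and the *ptgs2*-KO call of *Slc25a24* was lost without scramble replicate 2.

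In the same *ptges*-KO cells the glutamate carrier *Slc25a22* (-0.53) and the basic amino acid carrier *Slc25a29* (-0.50) fell. *Slc25a29* had 6.59, 7.21, and 6.87 RPKM in scramble and 4.66, 4.48, and 4.55 RPKM in *ptges*-KO samples. In GENCODE it lies head to head with *Slc25a47*, whose gene model starts 163 bases away on chromosome 12. The RefSeq promoter windows of the 2 genes lie further apart, at chr12:108835827-108836126 for *Slc25a29* and chr12:108850879-108851178 for *Slc25a47*. *Slc25a47* was at 4.4 ± 1.68 RPKM (SD, n = 3) in scramble cells against 2.35 ± 0.446 RPKM (n = 3) where *ptges* was knocked out (adjusted p = 0.0722). Smaller rises in *ptges*-KO cells were those of *Slc25a17* (0.31), a peroxisomal carrier of cofactors, and *Slc25a30* (0.32). The aspartate/glutamate carrier *Slc25a12* rose in *ptgs2*-KO cells (0.32), and *Slc25a45* rose in *ptgs1*-KO cells (0.61). The calls of *Slc25a12*, *Slc25a17*, *Slc25a30*, and *Slc25a45* were each lost when 1 of several single samples was left out, scramble replicate 2 among them. The dicarboxylate carrier *Slc25a10* fell in *ptgs1*-KO cells (-0.32).

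The largest single changes lay in small classes. The urea transporter *Slc14a1* had 6.06, 5.42, and 6.31 RPKM in scramble, 0.99, 2.24, and 1.96 RPKM in *ptgs1*-KO, 1.01, 1.13, and 1.37 RPKM in *ptgs2*-KO, and 0.82, 0.24, and 0.50 RPKM in *ptges*-KO samples. Every knockout sample lay below every scramble sample, and the means were 29.2%, 19.7%, and 8.77% of the scramble mean. The log2 fold changes were -1.37 (SE 0.18, adjusted p = 0.000336), -1.68 (SE 0.18, adjusted p = 7.36e-05), and -2.20 (SE 0.18, adjusted p = 2.83e-06), on a scale with a pseudocount of 1 that understates changes of genes as low as this. The difference between *ptges*-KO and *ptgs2*-KO cells was -0.53 (adjusted p = 0.069).

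The fructose transporter *Slc2a5* fell in one knockout and rose in another. Its levels were 2.79, 3.21, and 3.61 RPKM in scramble, 2.72, 2.62, and 2.01 RPKM in *ptgs1*-KO, 0.46, 0.31, and 0.30 RPKM in *ptgs2*-KO, and 6.5, 5.70, and 6.23 RPKM in *ptges*-KO samples, and no 2 lines overlapped. Against scramble cells the log2 fold change was -1.63 in *ptgs2*-KO (SE 0.12, adjusted p = 2.15e-06) and 0.77 in *ptges*-KO cells (SE 0.12, adjusted p = 0.000709), and it was -0.29 in *ptgs1*-KO cells (adjusted p = 0.179). The means were 76.5%, 11.1%, and 192% of the scramble mean in cells without *ptgs1*, *ptgs2*, and *ptges*. Among the other carriers of sugars and polyols, the myo-inositol importer *Slc5a3* fell in *ptges*-KO cells from 84.3 ± 5.42 to 57.2 ± 6.74 RPKM (SD, n = 3 each), a log2 fold change of -0.56 (SE 0.10, adjusted p = 0.00196), and *Slc37a2*, a sugar phosphate exchanger, fell as well (-0.42). The remaining 6 genes of that class did not pass the threshold in any knockout, among them the glucose transporter *Slc2a8*, at 11.8 ± 1.62 RPKM (SD, n = 3) in scramble cells against 8.38 ± 1.09 RPKM (n = 3) where *ptgs2* was knocked out.

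**Figure D4:**
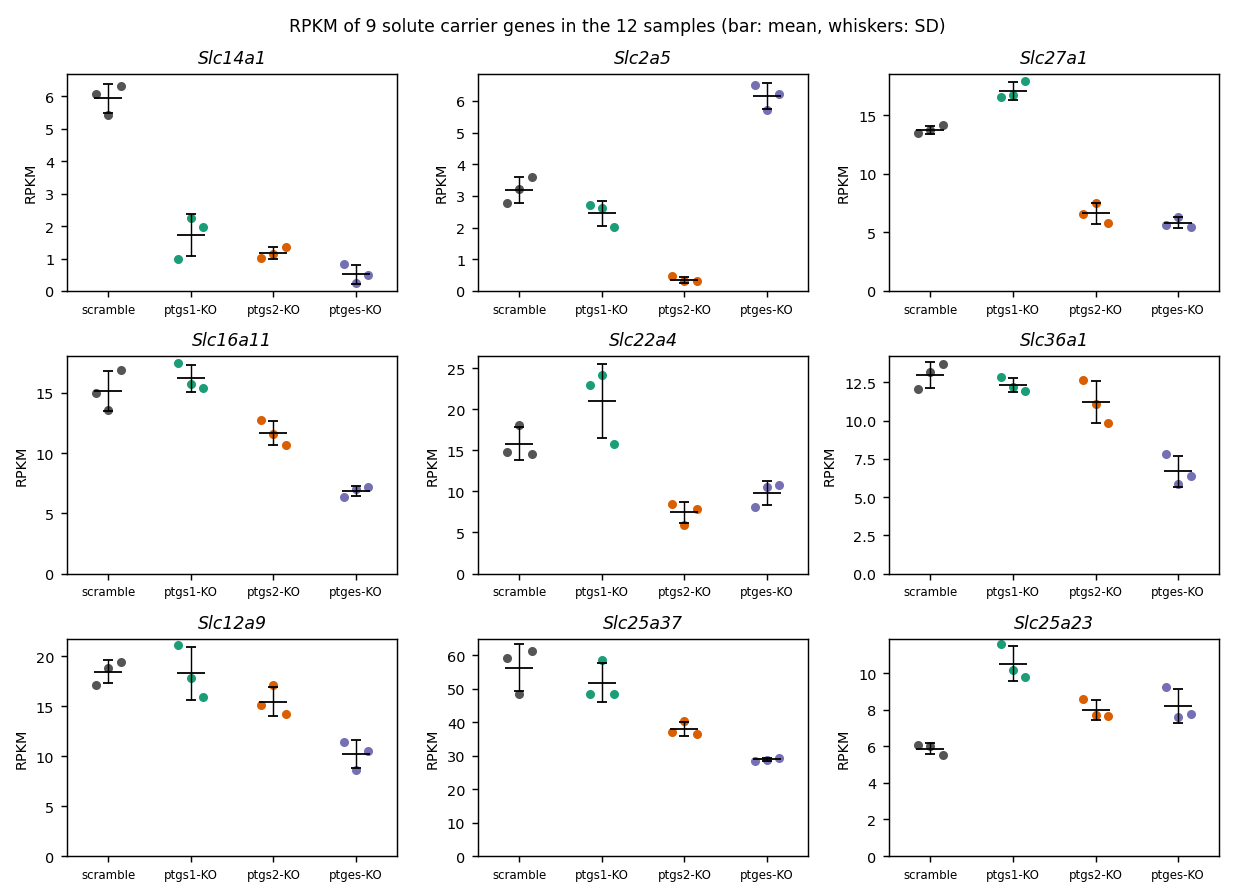
RPKM of 9 solute carrier genes in each of the 12 samples, with the mean (bar) and SD (whiskers) of each line, on axes that start at 0. *Slc14a1* is lower and *Slc25a23* higher in all knockouts than in scramble cells, and *Slc2a5* is lowest in *ptgs2*-KO and highest in *ptges*-KO cells.

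Fatty acid transport protein 1, coded by *Slc27a1*, had 13.5, 13.7, and 14.1 RPKM in scramble, 16.6, 16.7, and 17.9 RPKM in *ptgs1*-KO, 6.55, 7.56, and 5.81 RPKM in *ptgs2*-KO, and 5.68, 6.36, and 5.50 RPKM in *ptges*-KO samples. The samples of *ptgs2*-KO and *ptges*-KO cells overlapped each other and lay below all others. Log2 fold changes were -0.96 (SE 0.10, adjusted p = 4.11e-05) and -1.11 (SE 0.10, adjusted p = 5.09e-06), and in *ptgs1*-KO cells 0.29 (adjusted p = 0.0899). The related *Slc27a4* fell in *ptges*-KO cells (-0.39), and *Slc27a3* was at 1.72 ± 0.396 RPKM (SD, n = 3) in scramble cells against 0.937 ± 0.142 RPKM (n = 3) where *ptges* was knocked out (adjusted p = 0.0502).

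The carnitine and ergothioneine transporter *Slc22a4* was lower in the same pair of lines, with 14.8, 18.1, and 14.6 RPKM in scramble, 22.97, 24.2, and 15.8 RPKM in *ptgs1*-KO, 8.46, 5.95, and 7.90 RPKM in *ptgs2*-KO, and 8.11, 10.5, and 10.8 RPKM in *ptges*-KO samples. The log2 fold changes were -1 (SE 0.17, adjusted p = 0.00218) and -0.64 (SE 0.17, adjusted p = 0.0136), and the second was lost without scramble replicate 2. It neighbors *Slc22a21* and *Slc22a5*, both carnitine transporters, on chromosome 11, where *Slc22a21* fell in *ptges*-KO cells (-0.42) and *Slc22a5* was at 8.83 ± 0.446 RPKM (SD, n = 3) in scramble cells against 7.38 ± 0.258 RPKM (n = 3) where *ptges* was knocked out (adjusted p = 0.164). *Slc22a23*, a relative without a known substrate, fell in *ptges*-KO cells, from 29.99 ± 3.62 to 16.3 ± 1.42 RPKM (SD, n = 3 each), a log2 fold change of -0.84 (SE 0.12, adjusted p = 0.000397), and it differed from *ptgs2*-KO cells by -0.83 (SE 0.12, adjusted p = 0.000471). *Slc22a15* fell in *ptgs1*-KO cells, with 2.34, 1.69, and 1.42 RPKM in scramble and 1.01, 0.70, and 0.76 RPKM in *ptgs1*-KO samples (-0.62, SE 0.15, adjusted p = 0.0207), and this call was lost without scramble replicate 1 or 2 or *ptgs1*-KO replicate 2 or 3.

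Promoter sequences of 5 members that changed in *ptges*-KO cells are shown so that these genes can be compared at the sequence level, since *Slc27a1*, *Slc36a1*, *Slc12a9*, and *Slc22a4* fell there and *Slc2a5* rose. They were chosen after their values were seen. The sequences are those of RefSeq on GRCm38.p6 and run from 250 bases before to 50 bases after the gene start, 5′ to 3′ on the strand of the gene. Of the 157 genes, 121 (77.1%) were found in the promoter table, and motif shares over these were not compared with those of other genes. Capitals mark the E-box CACGTG, a palindrome that reads the same on both strands and is bound by MITF, MYC, and related factors, and which 7.15% of all 32851 promoters of the table and 10.9% of the 7817 promoters of genes tested contain.
Slc2a5: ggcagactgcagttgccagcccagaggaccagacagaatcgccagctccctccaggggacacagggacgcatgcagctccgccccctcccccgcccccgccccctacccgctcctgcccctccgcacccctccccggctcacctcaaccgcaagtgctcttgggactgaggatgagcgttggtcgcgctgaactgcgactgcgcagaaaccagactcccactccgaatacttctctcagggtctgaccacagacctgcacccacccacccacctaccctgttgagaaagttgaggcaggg
Slc27a1: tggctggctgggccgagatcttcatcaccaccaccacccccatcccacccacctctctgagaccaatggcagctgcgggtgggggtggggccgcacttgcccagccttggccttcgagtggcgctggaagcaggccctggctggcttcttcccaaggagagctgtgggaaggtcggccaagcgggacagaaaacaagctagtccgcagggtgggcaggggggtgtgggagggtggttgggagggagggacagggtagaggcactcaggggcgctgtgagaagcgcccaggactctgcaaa
Slc36a1: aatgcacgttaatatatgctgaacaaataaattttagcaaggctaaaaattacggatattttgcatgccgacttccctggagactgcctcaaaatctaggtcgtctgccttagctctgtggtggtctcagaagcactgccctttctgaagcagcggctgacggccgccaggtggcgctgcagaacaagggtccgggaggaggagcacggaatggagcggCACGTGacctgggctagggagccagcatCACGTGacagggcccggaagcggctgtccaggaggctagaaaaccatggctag
Slc12a9: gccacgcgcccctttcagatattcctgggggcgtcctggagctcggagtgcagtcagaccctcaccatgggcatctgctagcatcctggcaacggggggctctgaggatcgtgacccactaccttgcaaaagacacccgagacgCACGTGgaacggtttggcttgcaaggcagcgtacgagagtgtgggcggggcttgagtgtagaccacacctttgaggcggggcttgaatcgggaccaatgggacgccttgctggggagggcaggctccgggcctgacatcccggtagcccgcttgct
Slc22a4: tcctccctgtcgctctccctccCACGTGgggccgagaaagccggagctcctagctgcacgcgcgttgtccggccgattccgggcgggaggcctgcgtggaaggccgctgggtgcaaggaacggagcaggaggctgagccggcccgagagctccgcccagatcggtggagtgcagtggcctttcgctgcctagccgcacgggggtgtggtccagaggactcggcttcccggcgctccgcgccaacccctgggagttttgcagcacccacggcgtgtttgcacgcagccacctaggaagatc

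The windows are chr4:150119094-150119393 (plus strand) for *Slc2a5*, chr8:71568621-71568920 (plus strand) for *Slc27a1*, chr11:55204090-55204389 (plus strand) for *Slc36a1*, chr5:137333533-137333832 (minus strand) for *Slc12a9*, and chr11:54028055-54028354 (minus strand) for *Slc22a4*. The E-box occurs 2 times in the window of *Slc36a1* and 1 time in those of *Slc12a9* and *Slc22a4*. It does not occur in the windows of *Slc2a5* and *Slc27a1*. Among windows not shown, it is also absent from those of *Slc16a11*, *Slc24a5*, and *Slc22a23*, which fell more than *Slc22a4* in *ptges*-KO cells. It occurs 2 times each in those of *Slc20a1* and *Slc35a5*, which fell as well. A link between the E-box and these changes was not tested. The cAMP response element TGACGTCA, a palindrome as well and found in 1.79% of all promoters of the table, occurs in none of the 5 windows.

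Carriers of amino acids include the most abundant members. *Slc38a2*, a sodium-coupled importer of glutamine and alanine, had the highest mean of the 157 genes (574 RPKM), followed by *Slc7a5* (526 RPKM), which exchanges large neutral amino acids, and the zinc carrier *Slc30a4* (521 RPKM). None of the 16 genes of this class rose in *ptges*-KO cells and 6 fell (37.5%, with 14.4% of all genes tested), with a median of -0.25. In *ptgs2*-KO cells 1 fell (6.25%, with 5.17% of all genes tested), and in *ptgs1*-KO cells 1 rose (4.65% of all genes tested). *Slc38a2* was at 599 ± 24.1 RPKM (SD, n = 3) in scramble cells against 532 ± 84.8 RPKM (n = 3) where *ptges* was knocked out (adjusted p = 0.269). *Slc7a5* had 493, 576, and 540.5 RPKM in scramble and 524, 382, and 390.1 RPKM in *ptges*-KO samples, so that replicate 1 overlapped the scramble samples and the other two did not (adjusted p = 0.0846). The *ptgs1*-KO samples had 709, 603, and 567 RPKM of *Slc7a5*, all above the *ptges*-KO samples, with a difference of *ptges*-KO from *ptgs1*-KO cells of -0.54 (SE 0.13, adjusted p = 0.00713). Its partner *Slc3a2*, the heavy chain that carries light chains to the cell surface, was at 287 ± 13 RPKM (SD, n = 3) in scramble cells against 261 ± 5.53 RPKM (n = 3) where *ptges* was knocked out (adjusted p = 0.378). Among further light chains, *Slc7a6* was at 37.2 ± 0.591 RPKM (SD, n = 3) in scramble cells and was not called in any knockout, whereas *Slc7a7* (mean 0.443 RPKM) and *Slc7a8* (mean 0.0167 RPKM) were under the limit and *Slc7a10* was listed at 0. *Slc38a6*, the other abundant member of its family with a mean of 390.2 RPKM, was not called in any knockout.

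The proton-coupled amino acid transporter *Slc36a1* of the lysosome had 12.1, 13.2, and 13.7 RPKM in scramble, 12.9, 12.2, and 11.9 RPKM in *ptgs1*-KO, 12.6, 11.1, and 9.87 RPKM in *ptgs2*-KO, and 7.81, 5.84, and 6.40 RPKM in *ptges*-KO samples. The *ptges*-KO samples lay below all others, with a log2 fold change of -0.87 (SE 0.11, adjusted p = 0.000148) and a difference from *ptgs2*-KO cells of -0.67 (SE 0.11, adjusted p = 0.0013). The glutamine importer *Slc1a5* fell in both *ptgs2*-KO (-0.42, SE 0.10, adjusted p = 0.0175) and *ptges*-KO cells (-0.45, SE 0.10, adjusted p = 0.00567), from 248, 226, and 237 RPKM in scramble to 159, 202, and 171 RPKM and 171, 167, and 181 RPKM. The other lower genes in *ptges*-KO cells were *Slc38a10* (-0.44), the histidine and peptide carrier *Slc15a4* (-0.39), the aromatic amino acid carrier *Slc16a10* (-0.36), and the lysosomal glutamine carrier *Slc38a7* (-0.28). The glycine transporter *Slc6a9* rose in *ptgs1*-KO cells, from 73.0, 73.0, and 73.2 RPKM in scramble to 112, 99.1, and 92.6 RPKM (log2 fold change 0.46, SE 0.10, adjusted p = 0.0111), and this call was lost without *ptgs1*-KO replicate 1.

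**Figure D5:**
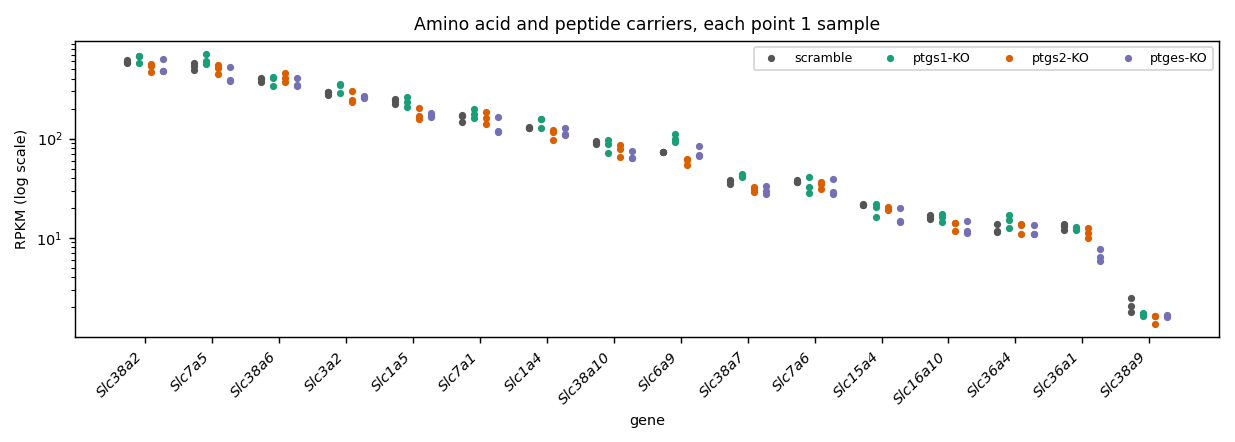
RPKM of the 16 carriers of amino acids and peptides in each sample on a log scale, ordered by their mean, each point 1 sample and each color a line. The *ptges*-KO points of *Slc36a1* lie below those of all other lines, whereas those of *Slc38a2* and *Slc38a6* overlap every other line and those of *Slc7a5* overlap scramble and *ptgs2*-KO but lie below *ptgs1*-KO.

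Monocarboxylate carriers differed between knockouts. *Slc16a11* and *Slc16a13*, which face each other on chromosome 11 with 372 bases between their ends, both fell in *ptges*-KO cells. *Slc16a11* had 14.96, 13.6, and 16.9 RPKM in scramble, 12.7, 11.6, and 10.7 RPKM in *ptgs2*-KO, and 6.35, 6.98, and 7.19 RPKM in *ptges*-KO samples, with log2 fold changes of -0.35 (SE 0.10, adjusted p = 0.0432) and -1.04 (SE 0.10, adjusted p = 1.33e-05). The difference between both knockouts was -0.69 (SE 0.10, adjusted p = 0.000459), and the call in *ptgs2*-KO cells was lost in 9 of 15 other settings, among them those without scramble replicate 1 or 3 or *ptgs2*-KO replicate 2 or 3. *Slc16a13* was far more abundant, at 199.8 ± 8.13 RPKM (SD, n = 3) in scramble cells, and fell in *ptges*-KO cells (-0.35) but rose in *ptgs1*-KO cells (0.38). The lactate and pyruvate transporter *Slc16a1* had 148, 166, and 152 RPKM in scramble, 115, 112, and 95.3 RPKM in *ptgs1*-KO, 171, 187, and 158 RPKM in *ptgs2*-KO, and 143, 115, and 115 RPKM in *ptges*-KO samples. It fell in *ptgs1*-KO (-0.53, SE 0.10, adjusted p = 0.0057) and *ptges*-KO cells (-0.32, SE 0.10, adjusted p = 0.0352), and the second call was lost without any 1 scramble sample or without *ptges*-KO replicate 2 or 3. *Bsg*, the chaperone that brings this transporter to the surface, moved otherwise in *ptges*-KO cells, with a mean of 519 RPKM in scramble, 397 RPKM in *ptgs1*-KO (adjusted p = 0.0363), and 655.5 RPKM in *ptges*-KO cells (adjusted p = 0.0331).

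Of 10 carriers of vitamins and cofactors, 3 fell and none rose in *ptgs1*-KO cells (30% lower, with 4.61% of all genes tested). None was called in *ptgs2*-KO cells, and 3 fell in *ptges*-KO cells (30%, with 14.4% of all genes tested). The thiamine transporter *Slc19a2* had 77.8, 81.7, and 76.2 RPKM in scramble, 56.2, 52.6, and 41.6 RPKM in *ptgs1*-KO, 94.98, 91.2, and 78.3 RPKM in *ptgs2*-KO, and 68.0, 57.3, and 61.4 RPKM in *ptges*-KO samples. Its log2 fold changes were -0.65 in *ptgs1*-KO (SE 0.11, adjusted p = 0.00219) and -0.33 in *ptges*-KO cells (SE 0.11, adjusted p = 0.0406), with the second lost without any 1 scramble sample or without *ptges*-KO replicate 2 or 3. The acetyl-CoA carrier *Slc33a1* of the endoplasmic reticulum fell in *ptgs1*-KO cells from 55.1 ± 0.435 to 38.3 ± 4.87 RPKM (SD, n = 3 each, log2 fold change -0.52, SE 0.09, adjusted p = 0.00304) and was at 55.4 ± 4.35 RPKM (SD, n = 3) where *ptges* was knocked out. The proton-coupled folate transporter *Slc46a1* fell in *ptgs1*-KO cells from 11.2 ± 0.725 to 7.9 ± 0.926 RPKM (SD, n = 3 each, log2 fold change -0.46, SE 0.10, adjusted p = 0.00957). In *ptges*-KO cells the choline transporter-like *Slc44a2* (-0.39, adjusted p = 0.0086) and the ascorbate transporter *Slc23a2* (-0.36, adjusted p = 0.0408) fell.

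Metal carriers moved in both directions. Of 22 genes, 6 fell (27.3%) and 1 rose in *ptges*-KO cells, where 14.4% of all genes tested fell and 11.9% rose. In *ptgs2*-KO cells 2 fell (9.09%, with 5.17% of all genes tested). In *ptgs1*-KO cells 3 fell (13.6%) and 1 rose, where 4.61% of all genes tested fell and 4.65% rose. Zinc carriers named *Slc30*, most of which move zinc out of the cytosol, included 3 of the genes that fell in *ptges*-KO cells, *Slc30a1* (-0.54), *Slc30a7* (-0.51), and *Slc30a4* (-0.40), as well as the only riser, *Slc30a9* (0.29), with 46.6, 47.5, and 52.9 RPKM in scramble and 60.8, 59.7, and 59.7 RPKM in *ptges*-KO samples. *Slc30a4* was the most abundant metal carrier, at 555 ± 25 RPKM (SD, n = 3) in scramble cells against 422 ± 40.4 RPKM (n = 3) where *ptges* was knocked out. Among the *Slc39* carriers, most of which bring zinc into the cytosol, *Slc39a11* had 62.6, 71.1, and 73.6 RPKM in scramble, 53.3, 55.1, and 54.0 RPKM in *ptgs2*-KO, and 48.1, 46.3, and 47.3 RPKM in *ptges*-KO samples, and fell in both (-0.34, SE 0.08, adjusted p = 0.0118, and -0.54, SE 0.08, adjusted p = 0.000293). The call in *ptgs2*-KO cells was lost without scramble replicate 2 or 3. *Slc39a3* fell in *ptges*-KO cells (-0.62) and *Slc39a13* in *ptgs2*-KO cells (-0.26, adjusted p = 0.0475). *Slc39a7* (-0.26, adjusted p = 0.0447) and *Slc39a10* (-0.43, adjusted p = 0.0452) fell in *ptgs1*-KO cells. *Slc39a8* was higher in *ptgs1*-KO cells, at 1.91 ± 0.358 RPKM (SD, n = 3) against 0.95 ± 0.135 RPKM (SD, n = 3) in scramble cells, and passed the limit through that line. This call was lost without scramble replicate 2 or 3 or *ptgs1*-KO replicate 1, and those of *Slc30a4* and *Slc30a9* were lost without scramble replicate 2 or *ptges*-KO replicate 2 or 3, among others. The iron importer *Slc11a2* fell in *ptgs1*-KO cells, with 21.9, 20.9, and 21.6 RPKM in scramble and 15.6, 15.8, and 16.1 RPKM in *ptgs1*-KO samples (-0.42, SE 0.08, adjusted p = 0.00613). The magnesium carrier *Slc41a2* fell in *ptges*-KO cells (-0.44). The zinc importer *Slc39a1*, with a mean of 221 RPKM, was not called in any knockout.

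Carriers named *Slc35*, many of which bring nucleotide sugars into the Golgi and endoplasmic reticulum for glycosylation, were lower in part where *ptges* was knocked out. Of 18 genes, 5 fell against scramble cells (27.8%, with 14.4% of all genes tested) and none rose there. No member was called in *ptgs1*-KO or *ptgs2*-KO cells. The 5 genes were *Slc35a5* (-0.50, SE 0.11, adjusted p = 0.00538), *Slc35e4* (-0.48, adjusted p = 0.00449), *Slc35a4* (-0.32, adjusted p = 0.0266), *Slc35b1* (-0.30, adjusted p = 0.0406), and the UDP-galactose transporter *Slc35a2* (-0.28, adjusted p = 0.0466). *Slc35b1* had a value of -0.33 against scramble cells where *ptgs1* was knocked out (log2 scale, adjusted p = 0.0521), and *ptges*-KO and *ptgs1*-KO cells differed by 0.04 (adjusted p = 0.82). *Slc35a5* had 18.97, 21.2, and 19.6 RPKM in scramble and 15.4, 13.2, and 12.9 RPKM in *ptges*-KO samples. The UDP-N-acetylglucosamine transporter *Slc35a3* had 19.2 ± 4.41 RPKM in *ptges*-KO and 31.4 ± 4.18 RPKM in *ptgs2*-KO cells (SD, n = 3 each, difference -0.69 on the log2 scale, SE 0.15, adjusted p = 0.00629). Set directly against *ptgs2*-KO cells, *ptges*-KO cells had lower levels of 5 of the 18 genes (27.8%, with 9.84% of all genes tested).

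Of 3 nucleoside carriers, the equilibrative transporter *Slc29a2* fell in *ptges*-KO cells from 22.5 ± 2.1 to 17 ± 1.08 RPKM (SD, n = 3 each, log2 fold change -0.38, SE 0.11, adjusted p = 0.0179), a call lost without scramble replicate 2 or 3 or *ptges*-KO replicate 2. Of the 3 carriers of creatine, osmolytes, and neurotransmitters none was called in any knockout. The creatine transporter *Slc6a8* was at 25.4 ± 2.82 RPKM (SD, n = 3) in scramble cells against 20.7 ± 3.62 RPKM (n = 3) where *ptges* was knocked out, and the taurine transporter *Slc6a6* at 279 ± 14.9 and 289 ± 57.2 RPKM (SD, n = 3 each). Names that match the family but code for no transporter made up 5 genes. Of these *Slc4a1ap*, an adaptor protein named for its binding to an anion exchanger, rose in *ptges*-KO cells from 14.9 ± 0.837 to 19.99 ± 0.824 RPKM (SD, n = 3 each, log2 fold change 0.40, SE 0.09, adjusted p = 0.00568). The pseudogene *Slc2a4rg-ps* fell there from 3.15 ± 0.06 to 1.67 ± 0.332 RPKM (SD, n = 3 each, log2 fold change -0.64, SE 0.13, adjusted p = 0.00285), and the scaffold *Slc9a3r2* rose in *ptgs1*-KO cells (0.66, SE 0.19, adjusted p = 0.0452), a call that was lost in 8 of 15 other settings, among them those without scramble replicate 1 or 2 or *ptgs1*-KO replicate 1 or 2. *Slc45a2*, the carrier of the melanosome that is used as a pigment cell marker, was listed at 0 in all samples.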

How the data were processed

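RNA-seq (HiSeq 2500, 101-base paired reads) of 12 cell samples was deposited by the authors as RPKM per gene. The submitters' processing notes name mm10, and the aligner and counter are not given in the sources used here. The labels and the study's methods name different RNA extraction kits, and the methods call the values normalized counts. No read counts were used, depth was only estimated from the steps between low values, and counting intervals were not computed. The 11282 genes that reached 1 RPKM on average were transformed to log2(RPKM + 1) and fitted with limma 3.58.1 (trended eBayes, R 4.3.3) over all 12 samples, with Benjamini-Hochberg adjustment. The fit was tested on simulated data for *ptges*-KO against scramble cells, where 66.7%, 93.4%, and 97% of genes changed by 0.5, 1, and 2 on the log2 scale were found. The genes changed numbered only 72, 61, and 67 of 11282. The noise was drawn separately for each value, without shifts shared by a sample. These shares therefore do not give the power in the real samples. Positions are those of GENCODE M21. Figures were drawn with matplotlib 3.10.9.

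The members, substrate classes, and lists were chosen with earlier results of these data known. Once the values were at hand, *Slc4a1ap*, *Slc7a6os*, and *Slc2a4rg-ps* were moved to the class of genes that are not transporters. Genes were named by rule: the 6 largest rises and falls per knockout among called genes without overlap, the 10 highest means, the lowest F test p of each class, the neighbors of the 1 RPKM limit, *Slc3a2* with its partners and pigment genes, and genes that rose in one knockout and fell in another. Other called genes of a class were named after their values were seen, and their calls were not followed gene by gene under the alternatives. Alternatives were another pseudocount, no filter, median ratio and quantile scaling, a replicate block, only the compared groups, untrended eBayes, a Tukey test, a fold limit, each sample left out, and, chosen after seeing the data, removal of length and GC trends. Values of some genes are not reported here.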

Additional observations from a re-analysis of the deposited data

Results flagged for a closer look

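*Slc2a5* differed between 2 knockouts that were compared with the same scramble samples. Its log2 fold change was -1.63 in *ptgs2*-KO and 0.77 in *ptges*-KO cells, and the difference between both lines, tested in the limma fit over all genes, was 2.40 (SE 0.12, adjusted p = 2.6e-08). All 3 *ptgs2*-KO samples lay below and all 3 *ptges*-KO samples above the scramble samples.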

How the results depend on the processing

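No called log2 fold change of a gene named by rule changed sign under the alternatives run, although some splits into higher and lower genes turned (3 and 2 in *ptgs1*-KO cells by the Tukey test, 15 and 14 in *ptgs2*-KO against *ptgs1*-KO cells without *ptgs1*-KO replicate 2). The numbers of solute carrier genes called against scramble cells in *ptgs1*-KO, in *ptgs2*-KO, and in *ptges*-KO cells and in *ptges*-KO against *ptgs2*-KO, *ptges*-KO against *ptgs1*-KO, and *ptgs2*-KO against *ptgs1*-KO cells were 5, 4, 20, 5, 25, and 17 by the Tukey test and 1, 3, 3, 1, 4, and 3 with a required change of 1 on the log2 scale. With only the compared groups in the fit the number in *ptgs1*-KO cells was 10. Median ratio scaling and quantile normalization each gave 29 in *ptgs2*-KO cells, and for *ptges*-KO against *ptgs2*-KO cells each gave 9 higher and 31 lower where the reported split was 3 and 27. Removal of length and GC trends, chosen after seeing the data and covering 94.6% of genes tested, gave 36, 36, and 61 in *ptgs1*-KO, *ptgs2*-KO, and *ptgs2*-KO against *ptgs1*-KO cells. The cause of these shifts was not tested. With 1 sample left out, the numbers ranged from 9 to 15, 8 to 12, 36 to 66, 16 to 45, 44 to 74, and 26 to 39 in the same order, and from 55 to 86 over the 4 lines. Of 49 calls of genes named by rule, 15 held in all settings other than the required change of 1, which was not counted here, and 34 were lost in at least 1. Sample numbers did not pair the samples, since deviations of samples with the same number correlated at -0.341 to 0.566, and 5 of 12 samples correlated best with their own number. With the replicate block the numbers were 19, 18, 63, 35, 72, and 39, and 83 over the 4 lines.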

Other observations

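Transporters and partners without a solute carrier symbol were read from a list of 30 genes, of which 28 were found and 24 tested. In *ptges*-KO cells 3 rose and 7 fell, in *ptgs1*-KO cells 1 rose and 4 fell, and in *ptgs2*-KO cells 3 rose and 3 fell. Over all genes tested 11.9% rose and 14.4% fell in *ptges*-KO, 4.65% and 4.61% in *ptgs1*-KO, and 5.97% and 5.17% in *ptgs2*-KO cells. *Mfsd2a*, a carrier of lysophosphatidylcholine, was at 2.43 ± 0.392 RPKM in scramble, 0.01 ± 0.0173 RPKM in *ptgs1*-KO, 4.89 ± 0.14 RPKM in *ptgs2*-KO, and 10.51 ± 0.568 RPKM in *ptges*-KO cells (SD, n = 3 each). Its log2 fold changes in limma were -1.76 (adjusted p = 2.43e-07), 0.79 (adjusted p = 0.000554), and 1.75 (adjusted p = 2.12e-07). The sphingosine-1-phosphate exporter *Spns2* moved opposite to *Mfsd2a* in *ptgs1*-KO and *ptges*-KO cells and rose with it in *ptgs2*-KO cells, at 6.65 ± 0.375, 17.54 ± 1.76, 9.81 ± 0.508, and 2.81 ± 0.43 RPKM (SD, n = 3 each) in the same order, with log2 fold changes of 1.27, 0.50, and -1.01 (adjusted p = 4.82e-06, 0.0106, and 2.78e-05 in limma). *Ank*, which exports pyrophosphate precursors, fell in *ptgs2*-KO (-0.44) and *ptges*-KO cells (-0.79), and the magnesium-related *Cnnm2* fell in all knockouts (-0.45, -0.41, and -0.70). The serine carrier of mitochondria *Sfxn1* rose in *ptgs2*-KO (0.45) and *ptges*-KO cells (0.30).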
